A study of Homo sapiens with 4 samples.

Results

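High mobility group (HMG) genes encode small, abundant nuclear proteins that bind chromatin without being histones, and they were examined here in HCT116, an established human colon cancer cell line. The family was named as 10 genes, HMGN1 to HMGN5, HMGA1, HMGA2 and HMGB1 to HMGB3, of which 9 were measured, out of 22411 genes in all. A gene was measured where a transcript cluster, the set of probes that an array reads for a transcript, carried its symbol alone. Each of the 9 had exactly 1 such cluster, so no choice between clusters was needed. HMGA1 shared its cluster with a pseudogene symbol and got no value of its own. The genes were chosen from knowledge of how they differed between the groups, so their differences below are a description, and the calls on them give no independent support to any statement.

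The arrays came from 2 groups of 2. Cells of the first had been transfected with an siRNA against CDK8, labelled siCDK8, and cells of the second with the control siRNA, labelled si(-), both at 50 nM and for 48 h. CDK8 is the kinase of a detachable module of Mediator, the complex that carries signals from transcription factors to RNA polymerase II. A single label covers the CDK8 siRNA, so an effect of losing CDK8 and another effect of that siRNA cannot be told apart. The titles call the replicates biological, and nothing says whether they were separate cultures, so the errors do not reach beyond these samples. Each error also draws on the spread of all tested genes, through the fit described below.

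HMG proteins fall into 3 families with different ways of holding DNA. HMGN proteins sit on the nucleosome itself and loosen compact chromatin, where they compete with linker histone H1. HMGA proteins grip the minor groove of AT-rich DNA through short AT hooks, and HMGB proteins bend DNA with HMG boxes. Dividing and embryonic cells make much of them, tumours often keep or regain them, and HMGB1 released from damaged cells alerts the immune system.

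With CDK8 siRNA, 8 of the 9 genes fell and HMGN4 rose. Differences, CDK8 siRNA minus control siRNA on the log2 scale, ran from -2.10 for HMGN2 to -0.33 for HMGN5 among the genes that fell. All 9 passed the fit across all genes (limma, Benjamini-Hochberg adjustment over 13956 tested genes, threshold 0.05), with adjusted p-values between 7.73e-05 and 0.0201. Of all tested genes 26.4% were called lower, 23.1% higher and 49.5% either way. In all 9 genes the groups did not overlap, which held for 74.7% of the tested genes. The median difference was -0.645 over the 9 genes and 0.005 over all tested genes. The array is a bulk measurement, in which fewer cells making a transcript and less transcript per cell cannot be told apart.

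**Figure D1:**
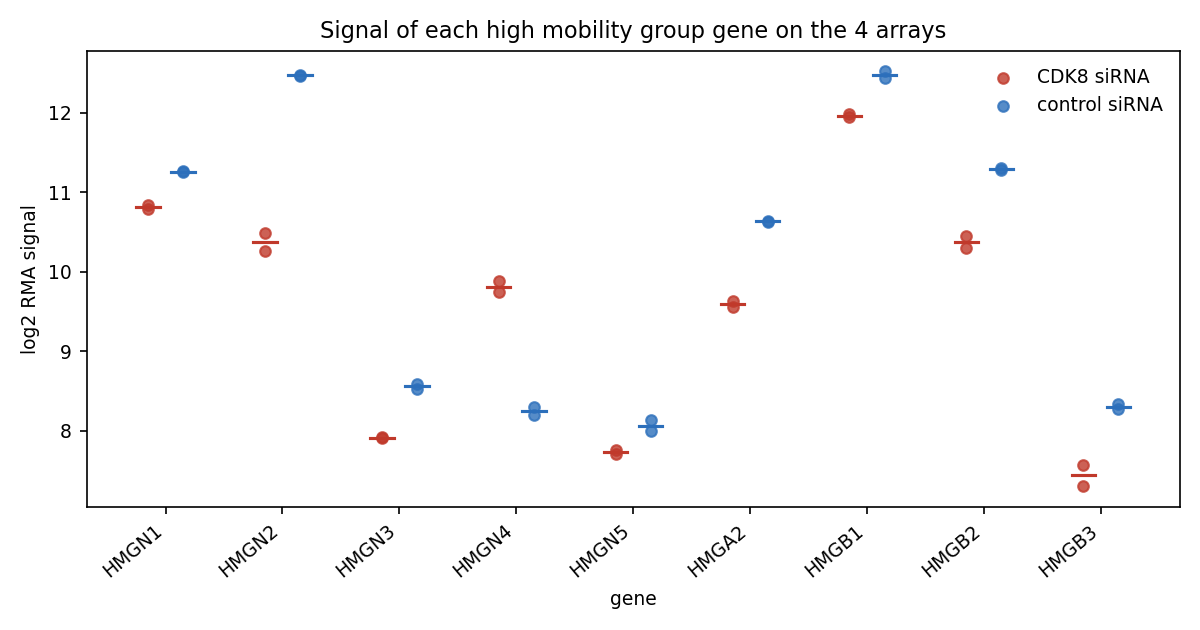
Log2 RMA signal (y axis) of the 9 measured high mobility group genes (x axis) on each array, with CDK8 siRNA in red on the left of each pair, control siRNA in blue on the right, and a bar at each mean of 2 arrays. The red points lie below the blue ones in every gene but HMGN4, and the replicates of a group lie at most 0.27 apart.

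Values are log2 signals after robust multi-array averaging (RMA), in which probes are corrected for background, equalised between arrays and summarised. They compare a gene with itself between groups, and levels of different genes are not ranked, since probes differ in brightness. The targeted gene checks the labels: CDK8 signals were 7.25 and 7.45 with CDK8 siRNA, against 9.99 and 10.04 with control siRNA, a 6.34-fold fall (-2.67 ± 0.09, standard error, adjusted p = 4.43e-05 in limma). Across tested genes the arrays of a group correlated with r = 0.9973 (CDK8 siRNA) and 0.9982 (control siRNA), and arrays of different groups with 0.9634 to 0.9651. Of 10 epithelial markers 7 reached the filter level of 4.28, while the intestinal genes CDX2, VIL1 and KRT20 did not reach it. Of the 7, 3 were higher (CDH1 by 2.83 ± 0.11, EPCAM by 0.65 ± 0.08 and KRT19 by 0.43 ± 0.12) and 1 lower (KRT18, -0.34 ± 0.10). KRT18 (adjusted p = 0.0304 in limma) was not recomputed under other settings, and KRT19 (adjusted p = 0.0317) was. KRT19 did not pass with arrays centred on their medians, with no filter, or when any array but CDK8 siRNA replicate 2 was omitted. The mean signal of the 10 was 8.57 to 8.70 with CDK8 siRNA, against 8.26 to 8.27 with control siRNA. Of 7 blood cell markers only CD68 reached the level, and it rose by 1.36 ± 0.11, with a list mean of 4.29 to 4.39 with CDK8 siRNA, against 4.05 to 4.10 with control siRNA. The pan-leukocyte gene PTPRC lay at 3.53 and 3.53 with CDK8 siRNA, against 3.49 and 3.41 with control siRNA. Of 9 fibroblast and endothelial markers ESAM and COL1A1 reached it, and both were called higher (0.28 ± 0.07 and 0.26 ± 0.07) but neither passed with any array omitted, nor with arrays centred on their medians. The part of these markers in the HMG values was not tested.

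The starts of HMGN2 and HMGN4 are shown because these genes moved in opposite directions, although HMGN4 is held to be a copy of HMGN2 made through its RNA. The windows run from 250 bases before to 50 after the annotated start, from RefSeq on GRCh38.p14, and both are on the plus strand. Capitals mark CCAAT, the box bound by the factor NF-Y, and GGGCGG, the GC box bound by SP factors, on either strand.
HMGN2, chr1:26472190-26472489: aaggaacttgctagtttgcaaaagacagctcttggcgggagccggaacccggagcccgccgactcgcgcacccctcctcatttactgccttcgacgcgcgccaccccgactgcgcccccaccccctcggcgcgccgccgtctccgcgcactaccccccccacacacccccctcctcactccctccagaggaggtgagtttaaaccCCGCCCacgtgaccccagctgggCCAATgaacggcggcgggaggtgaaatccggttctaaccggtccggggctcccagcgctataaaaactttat
HMGN4, chr6:26538116-26538415: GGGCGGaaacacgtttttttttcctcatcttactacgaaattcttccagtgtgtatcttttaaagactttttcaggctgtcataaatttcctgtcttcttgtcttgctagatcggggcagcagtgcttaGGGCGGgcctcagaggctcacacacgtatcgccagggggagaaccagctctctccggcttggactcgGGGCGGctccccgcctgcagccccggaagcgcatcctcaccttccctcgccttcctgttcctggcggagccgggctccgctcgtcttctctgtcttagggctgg

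The windows shared no run longer than 8 bases on the same strand or 9 on opposite strands. The HMGN2 window held 1 CCAAT and 1 GC box, and the HMGN4 window held 0 CCAAT and 3 GC boxes. GC content was 65.3% for HMGN2 and 56.7% for HMGN4, beside a median of 58.7% over all 35116 windows of the table. Windows were matched for 7 of the 9 measured genes, 10 windows in all, and HMGA2 and HMGB2 are named only. CCAAT stood in a window of 5 of the 7 genes (HMGN1, HMGN2, HMGN3, HMGB1 and HMGB3), in 6 of 10 windows and in 34.6% of all windows. HMGN4 and HMGN5 had none. GGGCGG stood in 7 of the 10 windows and in 45.0% of all windows. The letters TTTGAA, the CHR element of cell cycle promoters, stood in 2 of 10 windows, those of HMGB1 and HMGB3, against 15.2% of all. TATAAA stood in 1 of 10, that of HMGN2, and in 11.5% of all, and TTTNNCGC, an E2F-like stretch, in 0 of 10 and 6.89% of all. Both strands were searched, and matches that overlap were each counted. A match describes the letters only.

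HMGN2, also known as HMG17, is among the most abundant nucleosome-binding HMGN proteins, and it changed most in the family. Its signals were 10.49 and 10.26 with CDK8 siRNA, against 12.48 and 12.46 with control siRNA. Every CDK8 siRNA value lay far below every control value, and the control arrays differed by 0.02 and the CDK8 siRNA arrays by 0.23. The fall was 4.27-fold (-2.10 ± 0.10), which left 23.4% of the control level. Only 89 of the 13956 tested genes had a lower difference.

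HMGN4, which differs from its relatives in being encoded by a copied gene, moved the other way. Signals were 9.88 and 9.74 with CDK8 siRNA, against 8.19 and 8.29 with control siRNA, so that both CDK8 siRNA arrays lay above both control arrays. The rise was 2.97-fold (1.57 ± 0.09), and 235 tested genes had a higher difference. HMGN4 and HMGN2 therefore differed in their response by 3.67 log2 units, a gap that was not tested. Whether the cluster of either gene also reads RNA of the other was not tested. Both lie apart in the genome, HMGN2 at chr1:26472440-26476642 and HMGN4 at chr6:26538366-26546933 in GRCh38.p14.

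The remaining HMGN genes fell by less than HMGN2. HMGN1, or HMG14, which like HMGN2 is made in nearly all tissues, stood at 10.84 and 10.79 with CDK8 siRNA, against 11.25 and 11.27 with control siRNA. That is a 1.36-fold fall (-0.45 ± 0.07), with no overlap between the groups. HMGN3, first found as a partner of the thyroid hormone receptor and also called TRIP7, had signals of 7.90 and 7.92 with CDK8 siRNA, against 8.52 and 8.59 with control siRNA. Its fall was 1.56-fold (-0.65 ± 0.07). HMGN3-AS1, the antisense RNA of that locus, stood at 4.73 and 4.96 with CDK8 siRNA, against 4.66 and 4.80 with control siRNA, so its groups overlapped.

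HMGN5, which carries a long acidic tail and is encoded on the X chromosome, had the smallest difference. It lay at 7.76 and 7.71 with CDK8 siRNA, against 8.13 and 7.99 with control siRNA. The groups did not overlap, and their nearest values were 0.23 apart while the control arrays differed by 0.14. The fall was 1.25-fold (-0.33 ± 0.08), and limma gave an adjusted p above the threshold whichever array was left out (adjusted p = 0.0990 and 0.125 without CDK8 siRNA replicate 1 and 2, and 0.118 and 0.0632 without control siRNA replicate 1 and 2). HMGN1 did not pass in limma when control siRNA replicate 1 (adjusted p = 0.0515) or 2 (adjusted p = 0.0559) was omitted. With an array left out, the lone array of its group is assumed to vary like the others.

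**Figure D2:**
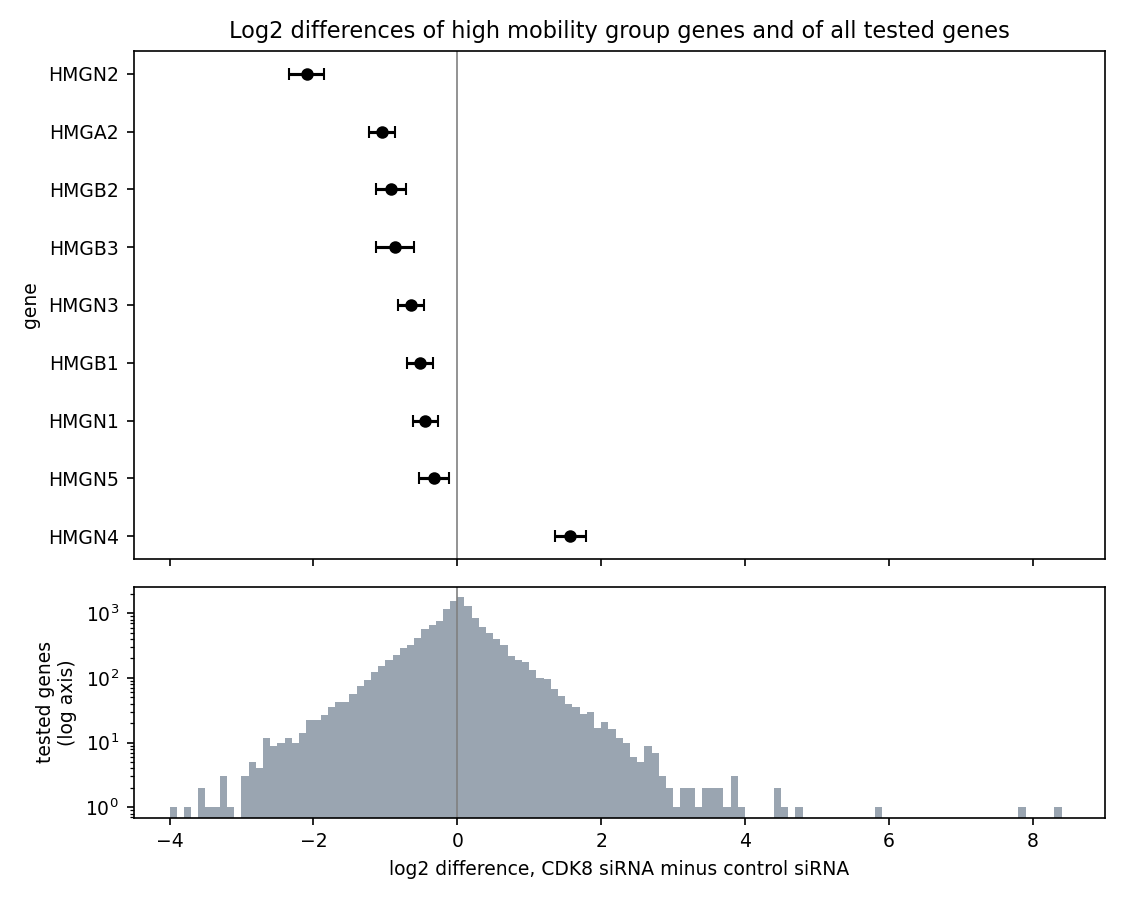
The upper panel gives the log2 difference, CDK8 siRNA minus control siRNA (x axis), of each measured high mobility group gene with its 95% interval from limma, and the lower panel the number of tested genes (log axis) at each difference. HMGN2 at -2.10 and HMGN4 at 1.57 lie in opposite tails of the distribution, and the other 7 genes lie between -1.05 and -0.33.

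HMGA2, an AT-hook protein of embryonic and tumour cells, was the only HMGA gene with a cluster of its own. Its signals were 9.55 and 9.63 with CDK8 siRNA, against 10.63 and 10.64 with control siRNA. Both CDK8 siRNA arrays lay about a full log2 unit below the control arrays, and replicates differed by 0.08 and 0.01. The fall was 2.06-fold (-1.05 ± 0.07), to 48.5% of the control level. The cluster listed under both HMGA1 and its pseudogene HMGA1P8 stood at 9.03 and 9.01 with CDK8 siRNA, against 9.33 and 9.23 with control siRNA. It had a difference of -0.26 with no overlap, and it was not tested because it names several genes.

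The HMGB genes fell together, with differences from -0.92 to -0.52 and a median of -0.865 over 3 genes. HMGB2, whose expression is high in dividing cells, stood at 10.30 and 10.45 with CDK8 siRNA, against 11.28 and 11.31 with control siRNA. Its groups were clearly apart, and the fall was 1.89-fold (-0.92 ± 0.08). HMGB3, an X-linked gene known from work on mouse blood stem cells, had 7.57 and 7.30 with CDK8 siRNA, against 8.33 and 8.27 with control siRNA. Here the CDK8 siRNA arrays differed by 0.27, the widest gap in the family, and the fall was 1.82-fold (-0.87 ± 0.11). HMGB3 did not pass in limma with control siRNA replicate 1 (adjusted p = 0.0630) or 2 (adjusted p = 0.0584) omitted.

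HMGB1, the main HMGB protein of most cells, had 11.95 and 11.98 with CDK8 siRNA, against 12.44 and 12.52 with control siRNA. It fell 1.43-fold (-0.52 ± 0.07), the least of the HMGB genes, and replicates lay within 0.08 of each other. Outside the cell HMGB1 acts through receptors such as AGER and TLR4. Of 13 genes listed for that role, 12 were on the array and 4 were bright enough to be tested. CD24, a surface protein that binds HMGB1 and dampens its signal, was lower (5.62 and 5.80 with CDK8 siRNA, against 6.43 and 6.39 with control siRNA; -0.70 ± 0.09, adjusted p = 0.00157), and 0 were higher. Among all tested genes 26.4% were called lower and 23.1% higher. CD24 did not pass with control siRNA replicate 1 (adjusted p = 0.0556) or 2 (adjusted p = 0.0530) omitted. AGER stood at 4.97 and 4.82 with CDK8 siRNA, against 4.81 and 4.84 with control siRNA, and did not pass. TLR2 and TLR4 lay under the filter level.

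Clusters that carry the symbols of HMG pseudogenes can share probes with the parent genes and were set beside them for comparison only. Of 7 clusters of HMGN2 pseudogenes 6 were lower on both CDK8 siRNA arrays than on both control arrays. HMGN2P15 had 11.45 and 10.81 with CDK8 siRNA, against 13.24 and 13.24 with control siRNA (-2.11), and HMGN2P17, with the smallest fall of the 6, differed by -1.78 (10.98 and 10.60 with CDK8 siRNA, against 12.60 and 12.53 with control siRNA). These differences lie on either side of that of HMGN2 itself. The seventh, HMGN2P46, was dim and stood at 4.58 and 4.65 with CDK8 siRNA, against 4.23 and 4.41 with control siRNA. Whether the pseudogene clusters read HMGN2 RNA was not tested.

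The other parents gave a mixed picture. HMGB1P5 and HMGB1P4 were lower by -0.72 and -0.71, beside -0.52 for HMGB1. A further HMGB1 cluster, HMGB1P24, overlapped between groups at -0.01. Of 3 clusters of HMGN1 pseudogenes, 2 were lower without overlap, HMGN1P38 at -0.35 and HMGN1P30 at -0.13, beside -0.45 for HMGN1. All 3 HMGB3 pseudogene clusters overlapped between groups, with differences from -0.21 to 0.01, beside -0.87 for HMGB3. HMGA1P1 stood at 12.09 and 11.78 with CDK8 siRNA, against 12.44 and 12.32 with control siRNA, a difference of -0.45, and HMGA1P4 overlapped between groups at -0.18.

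**Figure D3:**
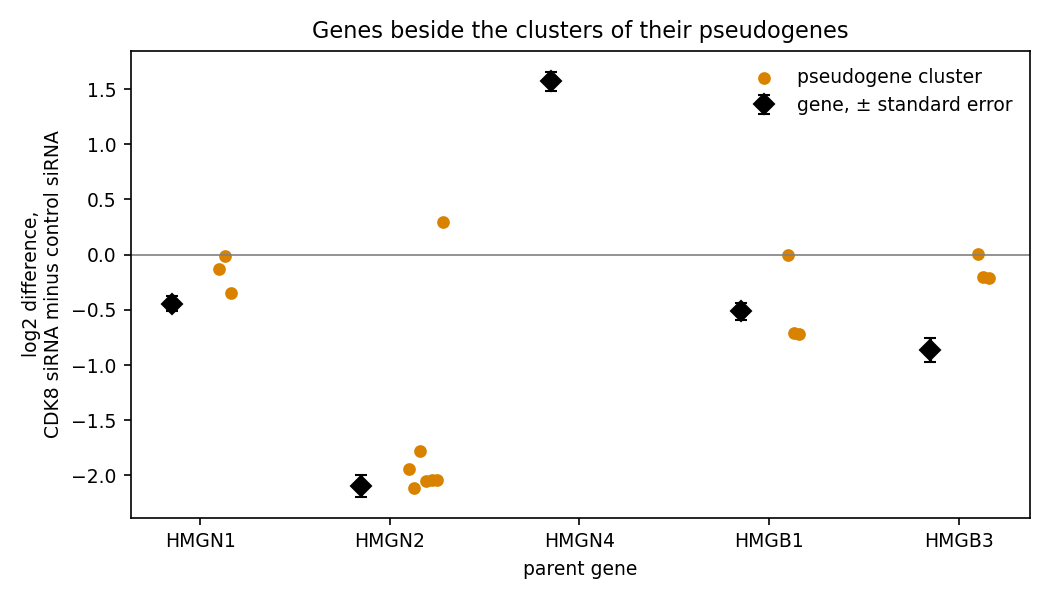
Log2 difference, CDK8 siRNA minus control siRNA (y axis), of 5 high mobility group genes (black diamonds, ± standard error) and of the pseudogene clusters named after each that reached the filter level (orange points). HMGN4 has no such cluster. Of the 7 points beside HMGN2, 6 lie between -2.11 and -1.78 and 1 at 0.30, while those beside HMGB3 lie near 0.

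Linker histones, the H1 proteins that HMGN proteins displace from nucleosomes, did not share a direction. Of 10 listed, 9 were on the array and 6 were tested, of which 1 rose, 2 fell and 3 did not pass (median 0.13). Among all tested genes 23.1% were called higher and 26.4% lower, so these counts do not set the list apart. H1-4 had 15.60 and 15.54 with CDK8 siRNA, against 16.53 and 16.53 with control siRNA (-0.96 ± 0.07, adjusted p = 2.59e-04). H1-2 fell by 0.94 ± 0.14 (adjusted p = 0.00333), and did not pass with CDK8 siRNA replicate 1 (adjusted p = 0.0658) or 2 (adjusted p = 0.0907) or control siRNA replicate 2 (adjusted p = 0.0568) omitted. H1-6, a testis-type H1, rose by 1.25 ± 0.11 (adjusted p = 5.12e-04).

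Histone chaperones, which hand histones on and off DNA, fell in 7 of 12 tested genes (of 13 listed), rose in 1 and did not pass in 4, with a median of -0.778. Among all tested genes 26.4% were called lower and 23.1% higher. The largest falls were those of CHAF1A (-1.53 ± 0.08), the large subunit of the replication-coupled assembly factor CAF-1, ASF1B (-1.32 ± 0.08), which passes histones to it, and SSRP1. SSRP1, itself an HMG-box protein, and SUPT16H make up FACT, which moves nucleosomes ahead of polymerases. SSRP1 had 11.64 and 11.51 with CDK8 siRNA, against 12.81 and 12.96 with control siRNA (-1.31 ± 0.09, adjusted p = 2.19e-04). SUPT16H, named after its value was seen, had a difference of -0.98 ± 0.07 (adjusted p = 2.67e-04). The riser was NAP1L4 (0.25 ± 0.07, adjusted p = 0.0289 in limma). That call was lost with any array omitted, with arrays centred on their medians, and at an adjusted p threshold of 0.01. With the clusters of a gene averaged, 2 of the list were higher.

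Other genes with an HMG box fell in 8 of 18 tested (of 25 listed), rose in 1 and did not pass in 9, with a median of -0.178. Called either way were 49.5% of all tested genes, with 26.4% lower and 23.1% higher. SMARCE1, a subunit of the SWI/SNF remodelling complexes, had 7.88 and 8.04 with CDK8 siRNA, against 10.84 and 10.78 with control siRNA, a 7.21-fold fall (-2.85 ± 0.09, adjusted p = 3.38e-05). PMS1, a mismatch repair relative, fell 3.08-fold (-1.63 ± 0.08) and TCF7L2, a DNA-binding partner of beta-catenin, 2.60-fold (-1.38 ± 0.09). The only riser was SP100, a nuclear body protein (0.54 ± 0.09, adjusted p = 0.00544), and 0 of the list were higher when any array but CDK8 siRNA replicate 1 was omitted.

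Enzymes known to modify HMG proteins fell in 7 of 12 tested (of 14 listed), rose in 1 and did not pass in 4 (median -0.345). For this list and the SET complex below, the shares over all tested genes were 26.4% lower and 23.1% higher. Calls of lower genes in this list fell to 5 and 4 without CDK8 siRNA replicate 1 and 2, and to 3 and 2 without control siRNA replicate 1 and 2. PARP1, which attaches ADP-ribose to HMGB1 among other proteins, fell by 1.27 ± 0.13 (adjusted p = 7.57e-04; 0.0509 without control siRNA replicate 2), and CSNK2A2, a catalytic subunit of casein kinase II, had a difference of -0.98 ± 0.07. The kinase gene PRKCA rose by 1.29 ± 0.10 (adjusted p = 3.08e-04). The SET complex, whose members work with HMGB2 in a DNA repair and nuclease assembly, fell in 2 of 5 tested genes (of 6 listed), with 0 higher. These were APEX1, the main abasic-site endonuclease (14.03 and 13.84 with CDK8 siRNA, against 15.14 and 14.88 with control siRNA; -1.08 ± 0.12), and ANP32A (-0.77 ± 0.08).

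HMGA2 is a classic target of let-7 microRNAs, whose maturation LIN28 proteins block and whose targets IGF2BP proteins can shield. The 2 let-7 loci called higher with CDK8 siRNA are shown as mature sequences from RefSeq (GRCh38.p14), 5′ to 3′, with the seed, bases 2 to 8, in capitals. Both share the same seed, which hsa-let-7a-5p, hsa-let-7d-5p and hsa-let-7f-5p also carry. The seed therefore does not set them apart from tested let-7 loci that did not pass. The part of let-7 in the HMGA2 value was not tested.
hsa-let-7i-5p: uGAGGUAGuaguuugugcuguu
hsa-miR-98-5p: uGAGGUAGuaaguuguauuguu

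The array reads the transcripts of these loci and not the mature microRNAs. MIRLET7I had 5.32 and 5.11 with CDK8 siRNA, against 4.49 and 4.55 with control siRNA (0.70 ± 0.09, adjusted p = 0.00212), which did not pass with control siRNA replicate 1 (adjusted p = 0.0659) or 2 (adjusted p = 0.0598) omitted. MIR98, named after its value was seen, had 6.1 and 6.0 with CDK8 siRNA, against 5.67 and 5.76 with control siRNA (0.34 ± 0.08, adjusted p = 0.0163). It did not pass whichever array was omitted (adjusted p from 0.0599 to 0.123). Of the 20 genes listed for this axis 11 were tested, of which 4 rose, 3 fell and 4 did not pass (median -0.11). Among all tested genes 23.1% were called higher and 26.4% lower. Other let-7 loci that were tested did not pass: MIRLET7D (-0.11 ± 0.07), MIRLET7F1 (0.18 ± 0.10) and MIRLET7A2 (-0.54 ± 0.21). MIRLET7A2 had 5.75 and 5.43 with CDK8 siRNA, against 6.43 and 5.83 with control siRNA, opposite in direction to MIRLET7I and MIR98. IGF2BP1 (-0.13 ± 0.07) did not pass either. Beside the 2 loci, and named to complete the count, LIN28A (0.27 ± 0.08) and the microRNA-processing enzyme gene DICER1 (0.26 ± 0.07) rose. LIN28A was dim, at 4.45 and 4.41 with CDK8 siRNA, against 4.11 and 4.21 with control siRNA. Its control values lay under the filter level, so its call rests on signals near that level. The 4 higher calls dropped to 1 without CDK8 siRNA replicate 1 or 2 and to 0 without control siRNA replicate 1 or 2. They were 2 with arrays centred on their medians or quantile normalized, and 1 when only genes above the 75th percentile were tested or at an adjusted p threshold of 0.01. IGF2BP3 fell by 1.40 ± 0.07 (adjusted p = 9.69e-05) and IGF2BP2, often expressed with HMGA2, by 0.69 ± 0.07. DROSHA, also a microRNA-processing enzyme gene, was called lower (-0.34 ± 0.08), opposite in direction to DICER1. LIN28B lay under the filter level at 3.67 and 3.60 with CDK8 siRNA, against 3.68 and 3.61 with control siRNA.

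**Figure D4:**
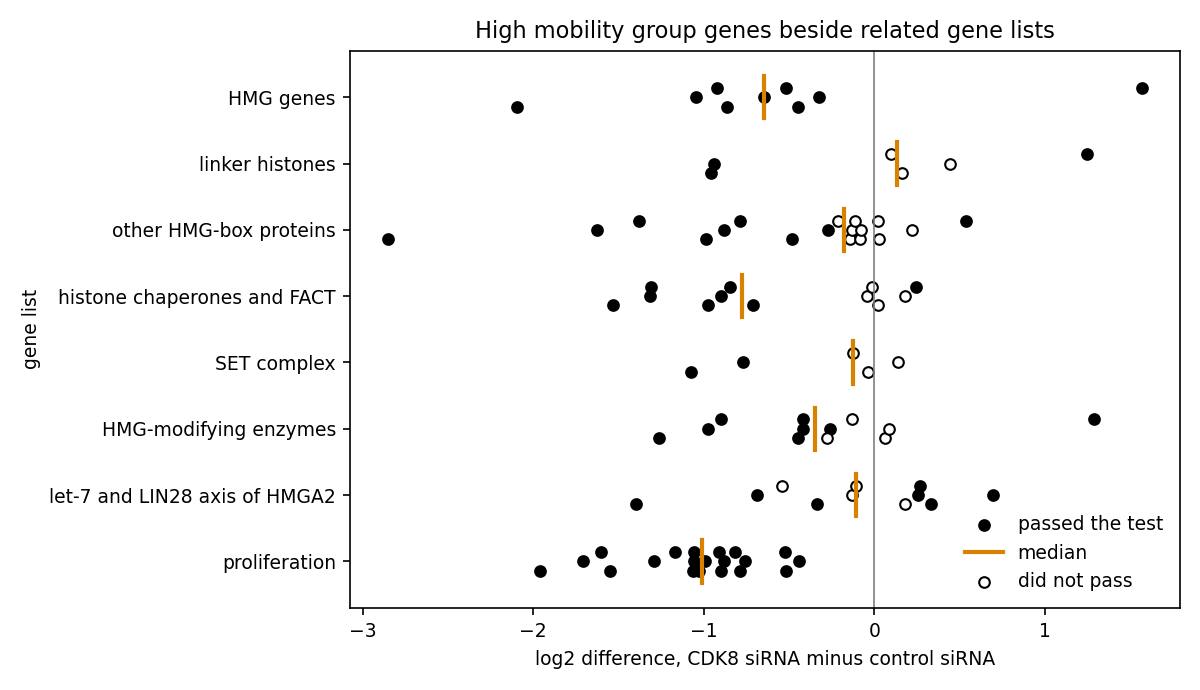
Log2 difference, CDK8 siRNA minus control siRNA (x axis), of each tested gene in the high mobility group family and in 7 related lists (rows), with filled points for genes that passed the adjusted threshold, open points for those that did not, and an orange bar at each median; the list of HMGB1 receptors and ligands, with 4 tested genes, is not drawn. The medians are -0.645 for the HMG genes, -0.778 for histone chaperones and -1.01 for proliferation genes, and the other 5 lie between -0.345 and 0.13.

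Several HMG genes are known to be made more in dividing cells, and a list of proliferation genes moved with them. All 20 fell (median -1.01), beside 26.4% of all tested genes called lower. RRM2, which makes nucleotides for replication, stood at -1.96 ± 0.10. The mitotic kinase gene AURKA stood at -1.71 ± 0.08 and the mitotic cyclin gene CCNB1 at -1.61 ± 0.07. RRM2 stood at -1.02 ± 0.10 when the clusters of a gene were averaged. The part of a change in proliferation in the HMG values was not tested.

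HMG genes and their chromosomal neighbours moved in the same and in opposite directions. Of the nearest protein-coding genes on either side in RefSeq order, 18 in all, 15 were tested, of which 6 were called in the direction of the HMG gene beside them, 6 in the opposite direction and 3 did not pass. That is 12 called of 15, beside 49.5% of all tested genes called either way. Called neighbours were 5 lower and 7 higher with all arrays. With any array left out, which leaves 1 array in a group, fewer were called in at least 1 direction. The lower count was 3 when only genes above the 75th percentile were tested. Genes whose signals ran closest to those of HMGN2 over the 4 arrays, each centred on its own mean, were BTBD2, SLC44A1 and PRKACB, with root mean square distances of 0.0205, 0.0300 and 0.0409 log2 units. Closest to HMGN4 were ARFGEF3, NDRG1 and MAL2, at 0.00829, 0.0249 and 0.0287. With 4 arrays in 2 groups this likeness reflects little more than an equal difference between the groups.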

How the data were processed

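Total RNA of 4 HCT116 samples was read on whole-transcriptome arrays after biotin labelling, per the labels' protocols. The authors deposited log2 signals. The submitters' processing notes name Affymetrix Expression Console and RMA. Their versions and settings and the genome build were not given in the sources used here. Summarising with RMA compresses differences at low signal, and the values carry 2 decimals. Of 70523 rows 67528 were transcript clusters, 23781 of them with 1 symbol in the platform annotation and 1543 with several. Symbols were updated through a RefSeq table of GRCh38.p14 (23777 matched, 306 changed), which gave 22411 genes, and the brightest cluster stood for the 528 genes with more than 1. A gene entered the fit if its 4-array mean was at least 4.28, the median over transcript clusters (13956 genes), with no covariates, by lmFit and eBayes of limma 3.58.1 in R 4.3.3 and Benjamini-Hochberg adjustment over all genes tested. Errors after ± are standard errors from that fit, n = 2 per group, and the median standard error over tested genes was 0.0832. The number of arrays limits the precision, and the smallest called difference was 0.21. The fit was tested on simulated data.

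The HMG genes and the related lists were chosen with earlier results of these data known. The lists hold linker histones, other HMG-box genes, histone chaperones, the SET complex, HMGB1 receptors and ligands, HMG-modifying enzymes, the let-7 axis, proliferation genes, and epithelial, blood cell, and fibroblast and endothelial markers. Named genes were all members, CDK8, up to 3 called genes of each list with the largest differences, and the 3 genes nearest in pattern to the members with the largest rise and fall; genes named outside that rule complete a small count, are partners, antisense or pseudogene comparisons, or did not pass or reach the filter. Alternatives changed the filter, the normalization, the eBayes settings, the cluster rule, the threshold, the replicate block and the arrays included. Figures were drawn with matplotlib 3.10.9.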

Additional observations from a re-analysis of the deposited data

How the results depend on the processing

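Each of the 9 HMG genes was recomputed under 13 alternatives, 117 values in all, and 0 changed direction. The call was kept in 109 and lost in 8, all with an array left out (HMGN5 in 4, HMGN1 in 2 and HMGB3 in 2). The count of HMG genes lower was 5 to 7 with an array left out. With the same omissions 1745 to 2414 of all tested genes were lower, against 3679 with all arrays, and 1377 to 2097 were higher, against 3229. Related genes of the 7 chromatin and let-7 lists were lower in 19 to 24 and higher in 2 to 4 with an array left out, against 30 and 8. The count of higher ones was 5 with arrays centred on their medians, 4 with a filter at the 75th percentile (6.17), which tests fewer genes, and 4 at an adjusted p threshold of 0.01; for centring the cause was not tested. Centring shifted the median of all genes by -0.075 and quantile normalization by -0.037. With the replicate block 8 HMG genes were lower and 1 higher, and 3300 of all tested genes were lower and 2838 higher. That block rests on a shared number only (correlation of replicate deviations between groups 0.121), and it ended the calls on MIR98 (adjusted p = 0.0563), COL1A1 (adjusted p = 0.0505) and KRT19 (adjusted p = 0.0627) among the named genes recomputed, and left 2 of the 4 higher calls of the let-7 list. With 2 arrays per group, the HMG difference nearest 0, that of HMGN5, passed only with all arrays present. The threshold was not among the 13 alternatives. At an adjusted p threshold of 0.01, 7 HMG genes were lower, against 8 at 0.05, and HMGN5 (adjusted p = 0.0201 in limma) did not pass.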
